A study of Oryza sativa with 3 samples.

Results

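This section describes 8 rice genes for transporters of manganese and cadmium in roots under vanadium: the NRAMP genes NRAMP1, NRAMP3 and NRAMP5, the P-type ATPase genes HMA2 and HMA3, the metal tolerance protein genes MTP8.1 and MTP9, and LCT1. They were chosen by locus number, by taking every probe whose name begins with 1 of the 8 loci. This gave 15 probes of 41889 gene probes and 8 of 29689 loci on the array. Roots of 6-day-old seedlings of Oryza sativa cultivar TN-67 that had been exposed to 1 mM vanadium were set against roots of the same age and cultivar in water. Total RNA of 3 biological replicates was compared on 3 arrays, each with the vanadium RNA in the red dye Cy5 and the water RNA of the same replicate number in the green dye Cy3. The labels give no exposure time, and the series title calls the response early. The dyes were not swapped, so for any single gene the dye and the treatment cannot be told apart. The RNA is from whole roots, in which fewer cells of a type and less RNA per cell cannot be told apart.

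Plants take up manganese as a nutrient, and cadmium, which is toxic, enters through the same carriers. NRAMP proteins carry divalent metals into the cell body, and in rice NRAMP5 is the main entry route of manganese and cadmium into root cells. Heavy metal ATPases pump metals such as zinc, cadmium or copper out of the cell body. MTP proteins exchange metals for protons to move them into vacuoles or out of the cell. In the rice root, uptake by NRAMP5 on the soil side of the exodermis and endodermis is coupled to efflux by MTP9 on the inner side.

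Symbols here are those of the member list, since the array files carry locus numbers only. For 6 of the 8 genes a RefSeq gene (assembly ASM3414082v1) lay on the chromosome of the locus number and within 2 percentage points of its relative rank there. NRAMP1, NRAMP3, NRAMP5 and HMA2 were placed under the same symbols. NRAMP5 and NRAMP1 stand at relative ranks of 31.07% and 31.2% among the array's loci on chromosome 7, closer together than this tolerance. The tolerance therefore cannot tell these neighbours apart. MTP8.1 and MTP9 were placed as the table's MTP4 and MTP7. HMA3 and LCT1 have no entry of that name in the table.

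Slide 1 held replicate 1, and slide 2 held the other 2 replicates. The number of gene probes well above background was 31162 to 31331 in the vanadium channel of each array, and 29144 to 30997 in its water channel. Log2 ratios correlated at 0.901 to 0.932 between arrays, across loci, which are not independent replicates. Of 4 root marker loci, 3 were tested and all 3 were well above background in both channels on every array. Their summed intensity was 219859 to 247863 in the vanadium channel and 135933 to 207043 in the water channel. It is mostly that of the single brightest locus, Os02g0662000. Of 5 loci for green shoot tissue, 3 were tested and 0 were called by limma, or at an unadjusted p under 0.05. Their summed intensity was 504 to 608 in the vanadium channel and 424 to 2206 in the water channel. The highest water sum came from Os09g0346500 on replicate 1, at a log2 intensity of 10.86, against 7.29 and 7.26 on replicates 2 and 3. Its log2 ratio was -2.93, 0.29 and -0.13 (limma adjusted p = 0.221), a spread too wide for the test to decide. The part of shoot tissue in replicate 1 was not tested. Neither of 2 seed storage loci passed the filter on dim probes.

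Transcripts of 4 of the 7 tested transporter genes fell under vanadium, and 0 rose (1, HMA2, was higher at an unadjusted p under 0.05 in limma). The 4 were NRAMP5, NRAMP3, HMA3 and MTP9, with mean log2 ratios of vanadium over water between -0.46 and -0.27. HMA2, MTP8.1 and NRAMP1 did not pass the test, and LCT1 was not well above background in either channel. No member moved by 2-fold or more under the reported processing. Of all tested loci, 10.5% were called and moved by at least 2-fold. A gene counts as higher or lower where the Benjamini-Hochberg adjusted p of limma's moderated test, over 21094 loci, is under 0.05.

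Lower calls were made at 21.3% of all tested loci, higher calls at 29.7%, and calls in either direction at 51.1%. The median log2 ratio of the 7 genes was -0.27, against 0.02 over all tested loci. All 7 were well above background in both channels on every array, so none passed the filter through a single channel. The log2 ratio was negative on all 3 arrays for 4 of the 7 genes (34.1% of all tested loci) and positive on all 3 for 1 of them, HMA2 (39.7% of all tested loci).

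**Figure D1:**
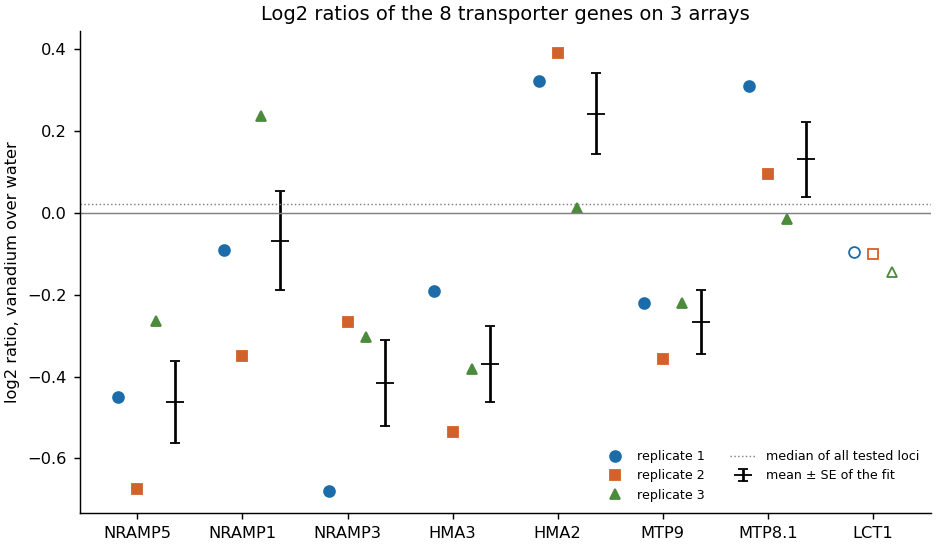
Log2 ratio of vanadium over water (y axis) for the 8 genes (x axis), with a coloured point per replicate array and a black bar for the mean and standard error of the fit. Open points mark LCT1, which was not well above background. All points of NRAMP5, NRAMP3, HMA3 and MTP9 lie below 0, while those of NRAMP1 and MTP8.1 lie on both sides.

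NRAMP5 (Os07g0257200, chromosome 7), the manganese and cadmium importer, had the lowest log2 ratio of the set under the reported processing. Its normalized log2 intensity on replicates 1, 2 and 3 was 7.33, 7.27 and 7.56 in vanadium roots, against 7.78, 7.94 and 7.83 in water roots. The groups did not overlap, which was so, with vanadium below water, for 16.7% of all tested loci. The log2 ratio was -0.45, -0.67 and -0.26, with a mean of -0.46 ± 0.10 (SE, n = 3 arrays) and limma adjusted p = 0.0100. This is 1.38-fold lower and stands at percentile 9.74 of all tested loci.

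The NRAMP5 probe was dim, and the size of its fall moved with the background correction. Its median spot signal was 100, 169 and 193 over a local background of 55, 73.5 and 66 in the vanadium channel. In the water channel it was 210, 355 and 338 over a background of 34, 66 and 59.5. An offset of 50 is added to both channels before the ratio, which pulls dim ratios toward 0. Without the offset the log2 ratio was -0.64. In the log ratios that the scanner software computed it was -1.11, -1.28 and -0.76 on replicates 1, 2 and 3, with a mean of -1.05. NRAMP5 was called lower under all 13 alternatives run, with limma adjusted p between 0.0035 and 0.0446. The 13 are not independent, as the scanner log ratio and the authors' deposited table gave the same values. Changing the probe filter, averaging probes or unpairing the channels left the ratio of this single-probe gene at -0.46. NRAMP3 had a lower ratio than NRAMP5 with no background correction, with median centring, with slide as a block and without replicate 2. With median centring HMA3 was also lower, at -0.498 against -0.493 for NRAMP5. Differences between these genes were not tested.

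NRAMP1 (Os07g0258400), a plasma membrane importer that in rice carries metals including cadmium, lies close to NRAMP5 on chromosome 7. The RefSeq table has 2 protein-coding genes between them. Its log2 intensity was 8.08, 8.37 and 8.66 in the vanadium channel and 8.17, 8.72 and 8.43 in the water channel. The channels overlapped, and the ratios were -0.09, -0.35 and 0.24 on the log2 scale. The mean was -0.07 ± 0.12 (SE, n = 3 arrays; limma adjusted p = 0.661), with a 95% interval of -0.36 to 0.22. All 4 NRAMP1 probes on the array showed the same order of sign: negative on replicates 1 and 2 and positive on replicate 3. Their mean log2 ratios lay between -0.09 and -0.06.

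The difference between the 2 neighbours, NRAMP5 minus NRAMP1, was -0.36, -0.33 and -0.50 on the log2 ratio scale on replicates 1, 2 and 3. NRAMP5 was therefore the lower of the pair on all 3 arrays. The mean difference was -0.39 ± 0.09 (SD, n = 3 arrays). With 3 arrays an exact sign-flip permutation test cannot go below p = 0.25, so it can make no call on this difference. Between them in locus number the array tested 1 further locus, Os07g0258000, with a log2 ratio of -0.31 ± 0.08 (SE, n = 3 arrays; limma adjusted p = 0.0171). Cross-hybridisation between these neighbours was not tested.

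NRAMP3 (Os06g0676000, chromosome 6), which in rice distributes manganese in vascular tissue, had a log2 intensity of 10.80, 10.89 and 10.78 in the vanadium channel, against 11.48, 11.16 and 11.09 in the water channel. The channels did not overlap, and the largest gap was on replicate 1. On the arrays the log2 ratio was -0.68, -0.27 and -0.30, with a mean of -0.42 ± 0.11 (SE, n = 3 arrays; limma adjusted p = 0.0179), or 1.33-fold lower. A second NRAMP3 probe gave -0.84, -0.26 and -0.21, again with the largest fall on replicate 1. Replicate 1 was also the only array of slide 1, and on slide 2 alone the mean was -0.28 (adjusted p = 0.0493). With slide as a block it was -0.48. In that fit the gene's own spread comes only from the arrays of slide 2, so the gap between slides is left out of the error.

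**Figure D2:**
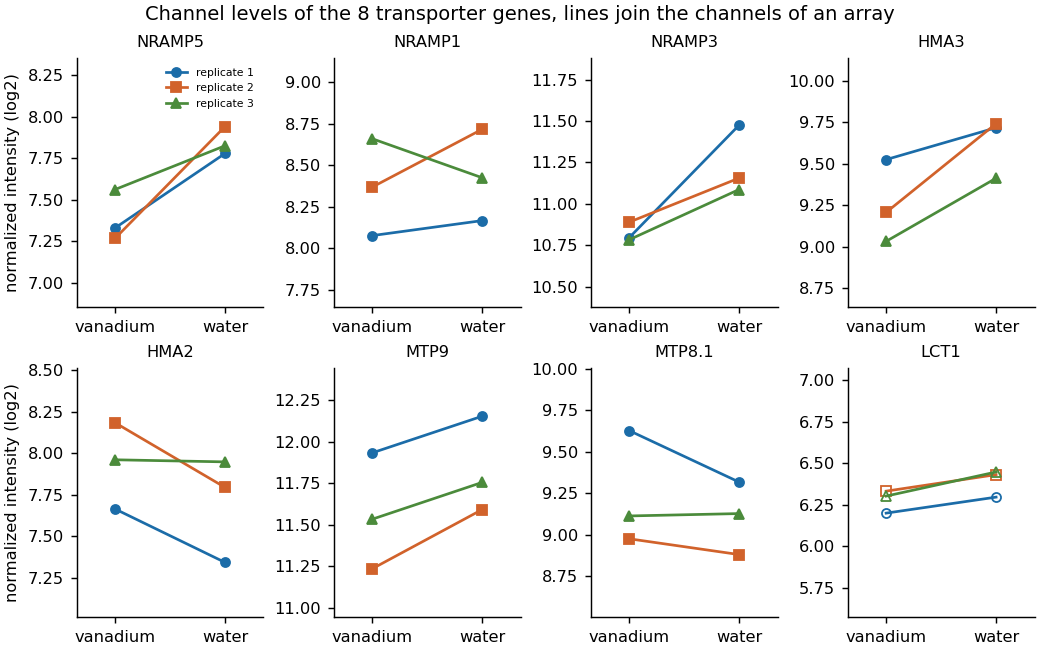
Normalized log2 intensity (y axis) in the vanadium channel (left) and the water channel (right) of each panel's gene, with a line joining the channels of each replicate array; every y axis spans the same range. Every line of NRAMP5, NRAMP3, HMA3 and MTP9 is lower at the vanadium end, and the channel values overlap for HMA3 and MTP9.

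HMA3 (Os07g0232900, chromosome 7), the rice pump that loads cadmium into root vacuoles, fell. Its log2 intensity was 9.52, 9.21 and 9.03 in the vanadium channel and 9.72, 9.74 and 9.41 in the water channel. Values of the channels overlapped between arrays, though within each array vanadium was lower. The log2 ratio was -0.19, -0.54 and -0.38, with a mean of -0.37 ± 0.09 (SE, n = 3 arrays; limma adjusted p = 0.0177), or 1.29-fold lower. The call was lost without replicate 2 (log2 ratio -0.29, adjusted p = 0.0732) and without replicate 3 (-0.36, adjusted p = 0.0691).

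HMA2 (Os06g0700700, chromosome 6), a plasma membrane pump for the transfer of zinc and cadmium from root to shoot in rice, did not pass the test. Its log2 intensity was 7.66, 8.18 and 7.96 in the vanadium channel and 7.34, 7.79 and 7.95 in the water channel. Its log2 ratio was 0.32, 0.39 and 0.01, so replicate 3 showed almost no difference. The mean was 0.24 ± 0.10 (SE, n = 3 arrays; limma adjusted p = 0.0847), and its 95% interval, unadjusted, ran from 0.0015 to 0.48. HMA2 was positive under all 13 alternatives and called under none, with limma adjusted p between 0.0607 and 0.459.

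MTP9 (Os01g0130000, chromosome 1), the manganese exporter that works with NRAMP5 in the rice root, fell, by the smallest amount among the 4 called genes under the reported processing. Its log2 intensity was 11.93, 11.23 and 11.53 in the vanadium channel and 12.15, 11.59 and 11.76 in the water channel. The channels overlapped between arrays, and replicate 1 was highest in both. The log2 ratio was -0.22, -0.36 and -0.22, with a mean of -0.27 ± 0.08 (SE, n = 3 arrays; limma adjusted p = 0.0307), or 1.20-fold lower.

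The MTP9 call rested on its brightest probe, whose name carries the tag 5′UTR+CDS. The other 2 probes, tagged CDS+3′UTR, had mean log2 ratios of -0.14 and -0.17 and were not called in a fit over 29703 probes (adjusted p = 0.180 and 0.121). All 3 probes were negative on every array, with the largest fall on replicate 2. With the mean over the probes the ratio was -0.19 (adjusted p = 0.0735). MTP9 was called under 7 of 13 alternatives and lost its call without any single replicate, with adjusted p = 0.0512, 0.107 and 0.124 without replicates 1, 2 and 3.

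MTP8.1 (Os03g0226400, chromosome 3), a rice carrier of manganese into the vacuole, did not pass the test. Its log2 intensity was 9.63, 8.98 and 9.11 in the vanadium channel and 9.32, 8.88 and 9.13 in the water channel. Across replicates the log2 ratio was 0.31, 0.10 and -0.01, highest on replicate 1. The mean was 0.13 ± 0.09 (SE, n = 3 arrays; limma adjusted p = 0.274), with a 95% interval of -0.09 to 0.35. The second MTP8.1 probe was not well above background in either channel on any array.

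LCT1 (Os06g0579200, chromosome 6), known in rice for cadmium efflux and transport in the phloem of leaves and nodes, had 1 probe. Its median spot signal was 56, 68 and 61 in the vanadium channel, against a local background of 58, 65.5 and 62. In the water channel it was 95, 169 and 165 over a background of 41, 60.5 and 60.5. It was not well above background in either channel on any array, so no ratio was tested and no fold is given.

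**Figure D3:**
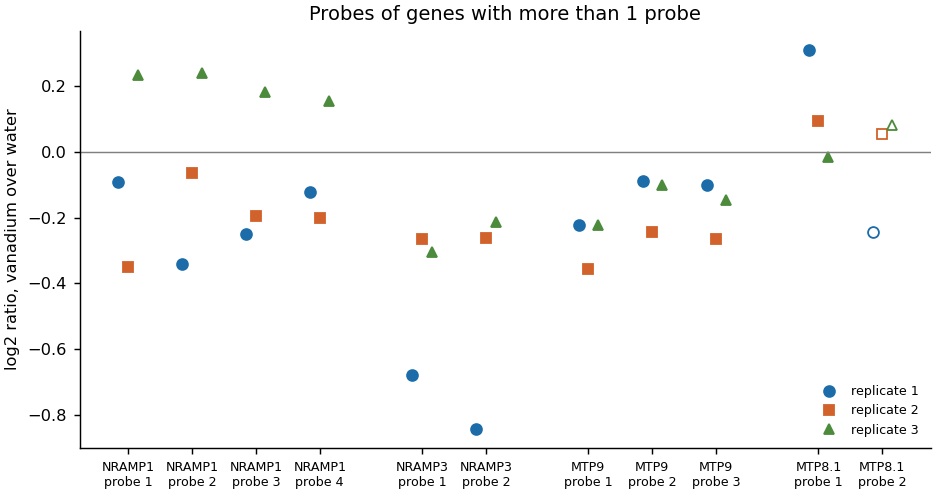
Log2 ratio of vanadium over water (y axis) for every probe of the 4 genes with more than 1 probe (x axis, numbered from the brightest), with a point per replicate array and open points for the probe that was not well above background. Kept probes of a gene shared the sign on each array in NRAMP1, NRAMP3 and MTP9.

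The scaling of the arrays moved the sizes of the 4 called falls and the call of MTP9, but none of the 4 directions. Median centring in place of loess ended the MTP9 call (log2 ratio -0.40, adjusted p = 0.0641) and no other member's. With the scanner software's log ratio all 4 were called, at -1.05 for NRAMP5, -0.68 for NRAMP3, -0.56 for HMA3 and -0.42 for MTP9. That log ratio had a median of -0.12 over all tested loci, against 0.02 under loess. Under it 41.4% of called loci were higher (4885 higher and 6910 lower), against 58.2% here (6269 higher and 4502 lower). Relative to the median of its own scaling, NRAMP5 stood at -0.93 with the scanner ratio and -0.48 here. NRAMP3 stood at -0.56 and -0.44, HMA3 at -0.44 and -0.39, and MTP9 at -0.30 and -0.29 on the same footing.

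The pairing of channels on an array also mattered to the calls. When the 6 channels were fitted as unpaired samples, limma called NRAMP5 lower (adjusted p = 0.0446) and no other member. NRAMP3 then had adjusted p = 0.0793, HMA3 0.175 and MTP9 0.450, and the share of lower calls among all loci dropped too, to 1368 of 21094.

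**Figure D4:**
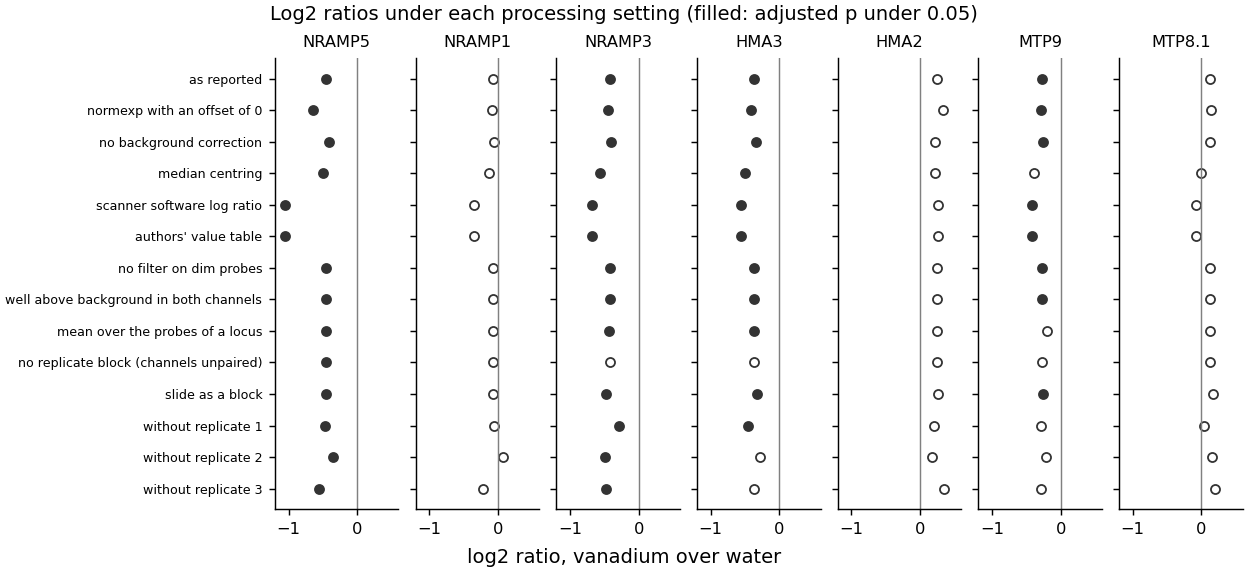
Log2 ratio of vanadium over water (x axes) of the 7 tested genes under the reported processing and 13 alternatives (y axis), filled where limma's adjusted p was under 0.05. NRAMP5 is filled in every row, NRAMP3 in all but the unpaired fit, and HMA2, NRAMP1 and MTP8.1 in none.

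By the distance over the 3 log2 ratios, the tested loci most like NRAMP5 were Os07g0448100 (distance 0.0383) and Os01g0949200 (distance 0.0412). Their ratios were -0.47, -0.67 and -0.30, and -0.42, -0.69 and -0.24. With 3 arrays the measure is coarse: 421 tested loci lay within a distance of 0.25.

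Other genes of the same families and of metal handling were mixed in direction. Of 25 such loci listed, 21 were tested, 5 were higher, 4 were lower and 12 were not called, with a median log2 ratio of 0.04. Symbols for these are given as in the RefSeq table where the place of the locus matched, which held for 17 of the 25 loci, and other loci go by number.

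Of 4 other NRAMP loci, 1 rose. NRAT1 (Os02g0131800), which in rice takes up trivalent aluminium rather than manganese, was higher on every array, with log2 ratios of 1.36, 1.60 and 1.99. The mean of 1.65 ± 0.13 (SE, n = 3 arrays; limma adjusted p = 0.000146), a 3.13-fold rise, was opposite in sign to NRAMP5 and NRAMP3. NRAMP2 and the table's NRAMP4 (Os01g0503400) and NRAMP6 (Os12g0581600) were not called, at 0.18, -0.08 and -0.10. The list written from general knowledge names Os01g0503400 NRAMP6 and Os12g0581600 NRAMP7.

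Among 6 tested loci of other heavy metal ATPases, 1 was higher, 2 were lower and 3 were not called. HMA9 (Os06g0665800), a plasma membrane metal exporter in rice, rose by 0.93 ± 0.09 (SE, n = 3 arrays; limma adjusted p = 0.000366). HMA5 (Os04g0556000), which loads copper into the xylem in rice, had a log2 ratio of -0.71 ± 0.08 (SE, n = 3 arrays; limma adjusted p = 0.000937), and of -1.07 with the scanner software's log ratio. Os08g0486100 was at -0.38 ± 0.09 (limma adjusted p = 0.0139, n = 3 arrays), a call lost without replicate 2 (adjusted p = 0.0519) and without the pairing of channels (adjusted p = 0.144). HMA4, a vacuolar copper pump of rice roots, was not called, at -0.14 (limma adjusted p = 0.185). Os06g0690700 was not called either, at -0.15 (limma adjusted p = 0.160). Both were called lower with the scanner log ratio and the authors' deposited table. There HMA4 was at -0.35 (limma adjusted p = 0.0291) and Os06g0690700 at -0.56 (limma adjusted p = 0.00574). The last tested locus, Os03g0178100, was at -0.03.

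Among 4 tested loci of other metal tolerance proteins, 2 were higher, 1 was lower and 1 was not called. In the list written from general knowledge, the table's MTP5, MTP8 and MTP3 are named MTP11, MTP12 and MTP8.2. The table's MTP8 is a different locus from the member MTP8.1. The table's MTP5 (Os01g0837800) rose by 0.99 ± 0.09 (SE, n = 3 arrays; limma adjusted p = 0.00027), with 0.93, 1.15 and 0.88 on the replicates. Its MTP8 (Os08g0422200) rose by 0.38 ± 0.09 (limma adjusted p = 0.0143, n = 3 arrays), and was called under 7 of 13 alternatives, losing the call without replicate 2 (adjusted p = 0.0632) and without replicate 3 (adjusted p = 0.0773). Its MTP3 (Os02g0775100) was lower at -0.22 ± 0.08, with limma adjusted p = 0.0498, just inside the threshold. It was called under 5 of 13 alternatives. The call was lost without any single replicate, with adjusted p = 0.142, 0.0915 and 0.218 without replicates 1, 2 and 3. MTP1, a vacuolar zinc carrier, was not called, at 0.27 (adjusted p = 0.0541), but was called higher under 3 of 13 alternatives. These were no background correction (0.28, adjusted p = 0.0437), the mean over the probes (0.25, adjusted p = 0.0458) and leaving out replicate 1 (0.37, adjusted p = 0.0179).

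Among 7 tested loci for iron, manganese and cadmium handling, 1 was higher and 1 lower. VIT2 (Os09g0396900), which moves iron and zinc into vacuoles in rice, fell by 1.08 on the log2 scale (SE 0.08, n = 3 arrays; limma adjusted p = 0.000135), with its vanadium channel well above background on 2 of 3 arrays. Its size moved with the processing, as for NRAMP5: the log2 ratio was -1.50 without the offset and -2.27 in the scanner software's ratios, and it was called lower in all 12 alternatives that gave it a value. Os03g0656500 rose by 0.84 ± 0.13 (SE, n = 3 arrays; limma adjusted p = 0.00286), with 0.46 on replicate 3 against 0.99 and 1.08 on replicates 1 and 2. IRT1, the iron importer that also lets in cadmium, was not called, at 0.25 (limma adjusted p = 0.0559). It was called higher with no background correction (adjusted p = 0.0421) and with slide as a block, which leaves out the gap between slides. YSL6 was not called, at -0.19 (adjusted p = 0.113), and was called lower with the scanner log ratio and the authors' deposited table (-0.28, limma adjusted p = 0.0472). IRT2, VIT1 and Os02g0629800 were not called, at 0.07, 0.04 and 0.20.

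**Figure D5:**
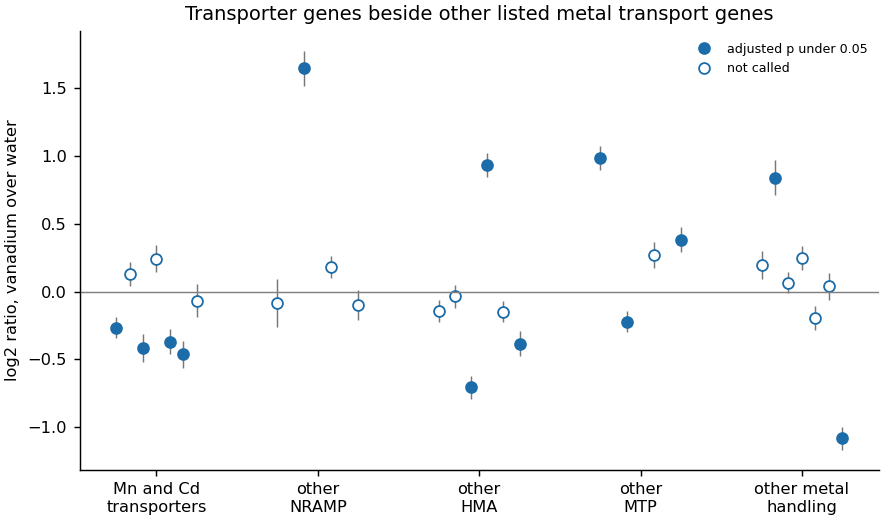
Mean log2 ratio of vanadium over water (y axis) with the standard error of the fit for each tested locus, by list (x axis), filled where limma's adjusted p was under 0.05. The 7 tested manganese and cadmium transporters lie between -0.46 and 0.24, while other lists reach 1.65 (NRAT1) and -1.08 (VIT2, -2.27 with the scanner software's log ratio).

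Among the root markers, the silicon transporters Lsi1 and Lsi2, which in rice are made in the same exodermal and endodermal cells as NRAMP5 and MTP9, were lower. Lsi1 had log2 ratios of -1.73, -2.72 and -1.75, and Lsi2 of -0.72, -1.68 and -0.66. The third tested root marker, Os02g0662000, was higher by 0.67 ± 0.12 (SE, n = 3 arrays; limma adjusted p = 0.00408). Replicate 2 had the largest fall in Lsi1, Lsi2, NRAMP5, HMA3 and MTP9, and replicate 1 in NRAMP3. Of all 4502 loci called lower, 31.5% had their lowest ratio on replicate 2 and 47.8% on replicate 1. The part of these markers in the results for the transporters was not tested.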

How the data were processed

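Per the labels' protocols, cRNA from vanadium roots was labelled with Cy5 and from water roots with Cy3. The deposited array files hold spot and background intensity, read per the file headers with Agilent Feature Extraction 10.7.1.1. These deposited files also give a processed intensity and its log10 ratio, red over green. Values in the authors' deposited table are log2 ratios and equalled the log2 of processed red over processed green for 100% of 41865 single-spot probes, within 0.001. Its columns have medians of -0.05, -0.19 and -0.21, so it is not centred.

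Median signals were corrected by normexp (offset 50) and normalized by loess within arrays (limma 3.58.1, R 4.3.3). Control spots had weight 0, and 1090, 401 and 306 outlier spots were left out; no spot was saturated and no member spot was left out. A probe was kept if all 3 arrays had it well above background in the same channel, red or green, and the brightest kept probe stood for a locus. The mean log2 ratio was tested against 0 with lmFit and eBayes, 2-sided, over 21094 loci. Channel levels were taken after Aquantile normalization between arrays. Vanadium and water RNA of the same number were hybridised together, and this is the source of the pairing. The steps were tested on simulated data, which held no slide effect and no dye effect particular to a gene. The smallest change placed in the simulated data was larger than any called fall of a member under the reported processing. Recovery at the size of those falls was not tested. Precision is limited by the number of arrays, 3.

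The members and lists were chosen with earlier results of these data known, and locus numbers of the other lists and markers were written from general knowledge. All 8 members, the other listed loci that were tested, and the 2 loci nearest in ratio to the called member with the largest fall are named; no member was called higher.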

Additional observations from a re-analysis of the deposited data

How the results depend on the processing

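Of the 4 called falls, NRAMP5 kept its call under all 13 alternatives, NRAMP3 under 12, HMA3 under 10 and MTP9 under 7, and none changed sign. The scanner log ratio and the authors' table, counted apart among the 13, gave the same values. The count of members lower was 4 as reported, 3 with median centring and with the mean over the probes (MTP9 lost in both), 1 without the pairing of channels (the fit with no replicate block) and 2 to 3 without single replicates; no member was called higher under any alternative. MTP8.1 changed sign to -0.0022 with median centring and to -0.075 with both the scanner log ratio and the authors' table, and NRAMP1, uncalled throughout, ranged from -0.22 to 0.072 without single replicates (positive without replicate 2).

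Over all loci, higher calls numbered 4052 with median centring and 3212 without the pairing, lower calls 6910 with the scanner log ratio and the authors' table, 1368 without the pairing and 2872 to 3598 without single replicates. Other MTP loci: lower 0 with an offset of 0, no background correction, median centring, no filter, no pairing or without any single replicate; higher 1 with median centring, the scanner ratio, the authors' table or no pairing, and 1 to 3 without single replicates. Other HMA loci: lower 4 with the scanner ratio and the authors' table, 1 without the pairing, and 1 to 2 without single replicates. Metal handling loci: higher 2 with no background correction or slide as a block, lower 2 with the scanner ratio and the authors' table and 0 with probes well above background in both channels, which drops VIT2. Signs also turned at 4 other loci, none of them called. Os03g0178100 was 0.031 with no background correction and -0.099 to 0.0026 without single replicates. VIT1 was -0.23 with the scanner ratio and the authors' table, -0.0014 with slide as a block and -0.077 to 0.12 without single replicates. The table's NRAMP4 (Os01g0503400) and NRAMP6 (Os12g0581600) were -0.35 to 0.13 and -0.24 to 0.0076 without single replicates. The cause of these changes was not tested. Low signal over background limits the sizes given for NRAMP5 and VIT2, and LCT1 gave no value above background.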
